A study of Arabidopsis thaliana with 4 samples.

Results

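The mitochondrial genome of Arabidopsis thaliana holds, beside its known genes, open reading frames (ORFs) of unknown function and loci for transfer RNAs (tRNAs), and these 105 loci are described here. They are the loci with a mitochondrial identifier (ATMG) in both deposited tables, less the 41 that are known genes, out of 146 mitochondrial loci and 34133 loci in all. Their levels were compared between wild type (Col-0) and a double knockout of AtTric1 (AT3G49560) and AtTric2 (AT5G24650), called the dko. The tissues were rosette leaves at 4 weeks and seedlings at 2 weeks. Both ages were grown at 22 °C with 16 h of light, after 2 days of cold (4 °C) given to the seeds of all groups, and rosette plants were moved to soil on day 5. Each of the 4 groups, wild type and dko at either age, has 3 replicates according to the labels. Which insertions make up the dko is not stated there.

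Plant mitochondria encode only some of the tRNAs they need and import the others from the cytosol, and TRIC1 and TRIC2 are membrane proteins of the Tim17, Tim22 and Tim23 family that have been linked to this import. The mitochondrial genome is read by the phage-type RNA polymerases RPOTm and RPOTmp, often well beyond the known genes, and polynucleotide phosphorylase degrades much of the surplus RNA. A large copy of the mitochondrial genome also lies in the nucleus, on chromosome 2, so that many mitochondrial loci have a near-identical nuclear copy.

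The authors deposited 1 pooled level per locus and group, in FPKM (fragments counted over a locus, per kilobase of its transcript and scaled to the library), so no value has its own standard deviation and sequencing depth is unknown. A locus is called higher or lower in the dko when the authors' Cuffdiff q-value is under 0.05. In the authors' deposited tables AtTric1 fell from 34.7 to 10.7 FPKM in rosettes and from 33.9 to 16.2 FPKM in seedlings, and AtTric2 stood at 17.5 FPKM against 0.069 FPKM in dko rosettes (q = 0.146) and fell from 17.7 to 0.366 FPKM in seedlings. The root gene PYK10, at 213 FPKM in wild-type seedlings and 1.57 FPKM in wild-type rosettes, fitted seedlings taken with their roots. The root gene NRT2.1 went the other way (0.201 and 1.35 FPKM), and PIN2 (0.297 and 0.0132 FPKM) was low in both.

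The sequences that follow are examples of mitochondrial tRNA genes and of nuclear copies of mitochondrial sequence. They were read from NCBI's TAIR10.1 genome, whose mitochondrial sequence differs from that of the tables, so its mitochondrial positions are not those of the tables. The first 3 are mitochondrial tRNA genes of that reference, for lysine (bases 19928 to 20000), cysteine (42546 to 42616) and the initiator methionine (149673 to 149743), all on the plus strand, with the anticodon in capitals.
trnK: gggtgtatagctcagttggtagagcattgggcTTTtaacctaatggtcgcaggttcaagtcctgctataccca
trnC: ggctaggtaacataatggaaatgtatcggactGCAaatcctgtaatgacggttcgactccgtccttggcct
trnfM: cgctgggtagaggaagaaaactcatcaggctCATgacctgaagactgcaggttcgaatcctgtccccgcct

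The next sequences set nuclear copies beside the mitochondrial genome. The reference pairs the ORF ATMG01150 with the nuclear locus AT2G07701 (chr2:3371832-3372152, plus strand), whose whole length of 321 bp is found unchanged at 2 places of the mitochondrial reference. Its first 66 bases are the same in both genomes.
AT2G07701 and mitochondrion: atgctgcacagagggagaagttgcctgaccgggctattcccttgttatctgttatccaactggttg

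ATMG00200 is paired with AT2G07724, which differs from the mitochondrial match at 1 base in 654. That base is in capitals in the stretch below (chr2:3446606-3446671, minus strand, and mitochondrial bases 187050 to 187115, plus strand), and it is T31C, counted from 1 at the 5′ end of the printed stretch with the nuclear base first.
AT2G07724: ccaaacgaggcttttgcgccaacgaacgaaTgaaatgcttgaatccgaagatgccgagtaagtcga
Mitochondrial match: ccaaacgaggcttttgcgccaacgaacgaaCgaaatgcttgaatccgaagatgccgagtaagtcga

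ATMG01260 is paired with AT2G07813 (stretch chr2:3353782-3353841, plus strand, and mitochondrial bases 77498 to 77563, minus strand), in which the 6 mitochondrial bases in capitals are missing from the nuclear copy.
AT2G07813: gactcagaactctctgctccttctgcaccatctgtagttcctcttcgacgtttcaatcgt
Mitochondrial match: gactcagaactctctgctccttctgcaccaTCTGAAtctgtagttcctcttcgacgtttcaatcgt

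None of the 19 tRNA-sized loci, those with a span of 100 bp or less in the tables (62 to 97 bp), carried any signal: all 19 were listed at 0 in all 4 groups and none was tested. The reference genome names 21 mitochondrial tRNA genes of 71 to 88 bp, of 16 kinds by name, but does not pair them with the ATMG identifiers, so the amino acid of each listed locus is not given here. The zeros were not particular to the mitochondrion: the 623 nuclear tRNA loci of the tables were likewise listed at 0 in all 4 groups, 564 of them with a span of 100 bp or less. With those 564 included, 719 of the 727 loci of that size outside the 105 were at 0. Levels of tRNAs in the dko therefore cannot be read from these tables, in either tissue.

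The other 86 loci, called ORF loci here, spanned 303 to 5216 bp (median 426 bp). Of these, 48 were above 0 in all 4 groups, 27 were listed at 0 in all 4 groups and 11 were listed at 0 in 1 to 3 groups. Among the 11, every value was under 1 FPKM, the highest being 0.814 FPKM for ATMG01010 in dko seedlings. Some of the loci listed at 0 lay singly or in pairs along the genome, and others in runs. Leaving out tRNA-sized loci, 5 runs of 3 or more neighbouring loci were listed at 0. The longest were of 4 loci (ATMG00590 to ATMG00620, ATMG00740 to ATMG00770 and ATMG00840 to ATMG00870). Whether such runs exceed a random order was not tested. Of the 40 named mitochondrial genes over tRNA size, 3 were listed at 0 in all 4 groups. In the plot of levels along the mitochondrial map these zeros lie between loci of up to 2598 FPKM.

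**Figure D1:**
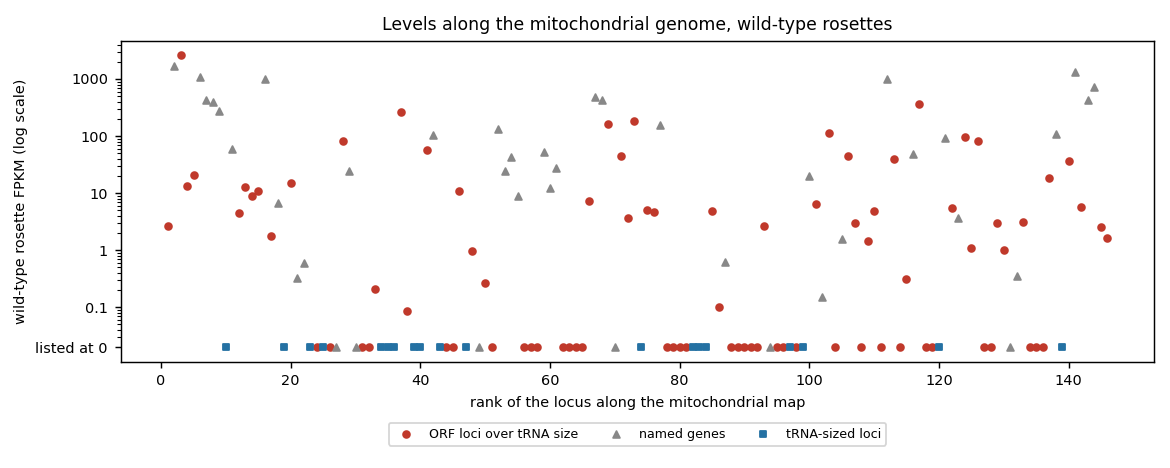
Wild-type rosette level of each of the 146 mitochondrial loci (FPKM, log scale) by rank along the mitochondrial map, with ORF loci in red, tRNA-sized loci in blue and named genes in grey, and loci listed at 0 on the bottom line. All 19 tRNA-sized loci lie on the bottom line, and ORF loci range from there to 2598 FPKM.

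Most ORF loci with a test were higher in dko rosettes. In the authors' deposited table, 43 had a test, of which 25 were higher, 1 was lower and 17 did not pass, with 16 of these 17 also at a ratio above 1. Over all 18338 loci tested in rosettes, 7.81% were higher and 8.94% lower. The median log2 ratio of dko over wild type was 1.27 for the tested ORF loci, 0.01 over all loci tested and 0.85 over the 33 tested named mitochondrial genes, of which 16 were higher and 1 lower. In bulk RNA of whole organs, more cells of a type and more RNA per cell cannot be told apart. Of 2 genes of green tissue, CAB3 (AT1G29910, a chlorophyll-binding protein) fell from 1200 to 207 FPKM in rosettes and from 5125 to 1894 FPKM in seedlings. RBCS1A (AT1G67090, the small subunit of ribulose bisphosphate carboxylase) stood at 5745 and 3989 FPKM in rosettes and 12383 and 7448 FPKM in seedlings and passed the test in neither. The 3 root genes passed in neither tissue, or had no test, and the part of tissue make-up in the ORF levels was not tested. Of the 25 ORF loci called higher, 19 were higher by 2-fold or more, beside 727 of the 1433 called higher over all loci.

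The highest ratios among the rosette calls were of ORF loci that were weak in wild type. The wild-type level is also the denominator of the ratio, so this pattern is in part built in. ATMG00170 (ChrM, 48113 to 48532 in TAIR10) was at 1.77 and 12.3 FPKM in wild-type and dko rosettes, and at 6.86 and 13.2 FPKM in seedlings. Its rise was 6.96-fold in rosettes (log2 ratio 2.80, q = 0.0114) and 1.93-fold in seedlings (log2 ratio 0.95, q = 0.0447) in the authors' deposited tables. ATMG01050 (272944 to 273423) stood at 1.45 and 7.98 FPKM in wild-type and dko rosettes, and at 2.62 and 5.56 FPKM in seedlings. It passed the test in rosettes only (log2 ratio 2.46, q = 0.00455), and in seedlings its log2 ratio of 1.08 had q = 0.0523 in the authors' deposited tables. Whether the 2 tissues differ was not tested for any single locus.

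ATMG00010, the first locus of the map (273 to 734), was at 2.67 and 11.7 FPKM in wild-type and dko rosettes, and at 7.57 and 16.1 FPKM in seedlings. It rose in both tissues in the authors' deposited tables, with a log2 ratio of 2.13 (q = 0.00403) in rosettes and 1.09 (q = 0.00588) in seedlings. ATMG01410, the last locus of the map (366086 to 366700), was at 1.61 and 6.36 FPKM in rosettes and at 2.29 and 6.92 FPKM in seedlings. It too rose in both, at 1.98 (q = 0.00455) and 1.60 (q = 0.00141) on the log2 scale in the authors' deposited tables, the latter the highest among the seedling calls.

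A cluster of 3 neighbouring loci, ATMG00130, ATMG00140 and ATMG00150 (34190 to 36132), changed alike. In wild-type and dko rosettes ATMG00130 was at 13.0 and 35.0 FPKM, ATMG00140 at 8.76 and 31.1 FPKM and ATMG00150 at 10.8 and 30.9 FPKM. Seedling levels were 18.1 and 33.0 FPKM for ATMG00130, 16.9 and 28.1 FPKM for ATMG00140 and 13.8 and 23.5 FPKM for ATMG00150. All 3 were higher in both tissues in the authors' deposited tables, with log2 ratios of 1.43, 1.83 and 1.51 in rosettes and 0.87, 0.74 and 0.76 in seedlings. ATMG00040 and ATMG00050, which share a span (16844 to 17791), were also higher in both: ATMG00050 went from 20.6 to 66.7 FPKM in rosettes and from 28.0 to 57.6 FPKM in seedlings. The reads of loci on a shared span cannot be told apart with certainty.

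Of the other ORF loci with high ratios in rosettes, ATMG00890 (2.69 to 10.4 FPKM), ATMG01060 (4.84 to 16.1 FPKM) and ATMG00120 (4.42 to 13.3 FPKM) passed the test there but not in seedlings. ATMG00450 went from 11.1 to 33.0 FPKM in rosettes and from 17.7 to 33.3 FPKM in seedlings and was higher in both. ATMG00200, whose nuclear partner AT2G07724 is shown above, went from 15.2 to 42.9 FPKM in rosettes and from 22.6 to 44.1 FPKM in seedlings. Its q-values were 0.00455 and 0.00141 in the authors' deposited tables. ATMG00810 was also higher in both, from 4.85 to 12.9 FPKM and from 8.13 to 16.4 FPKM.

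**Figure D2:**
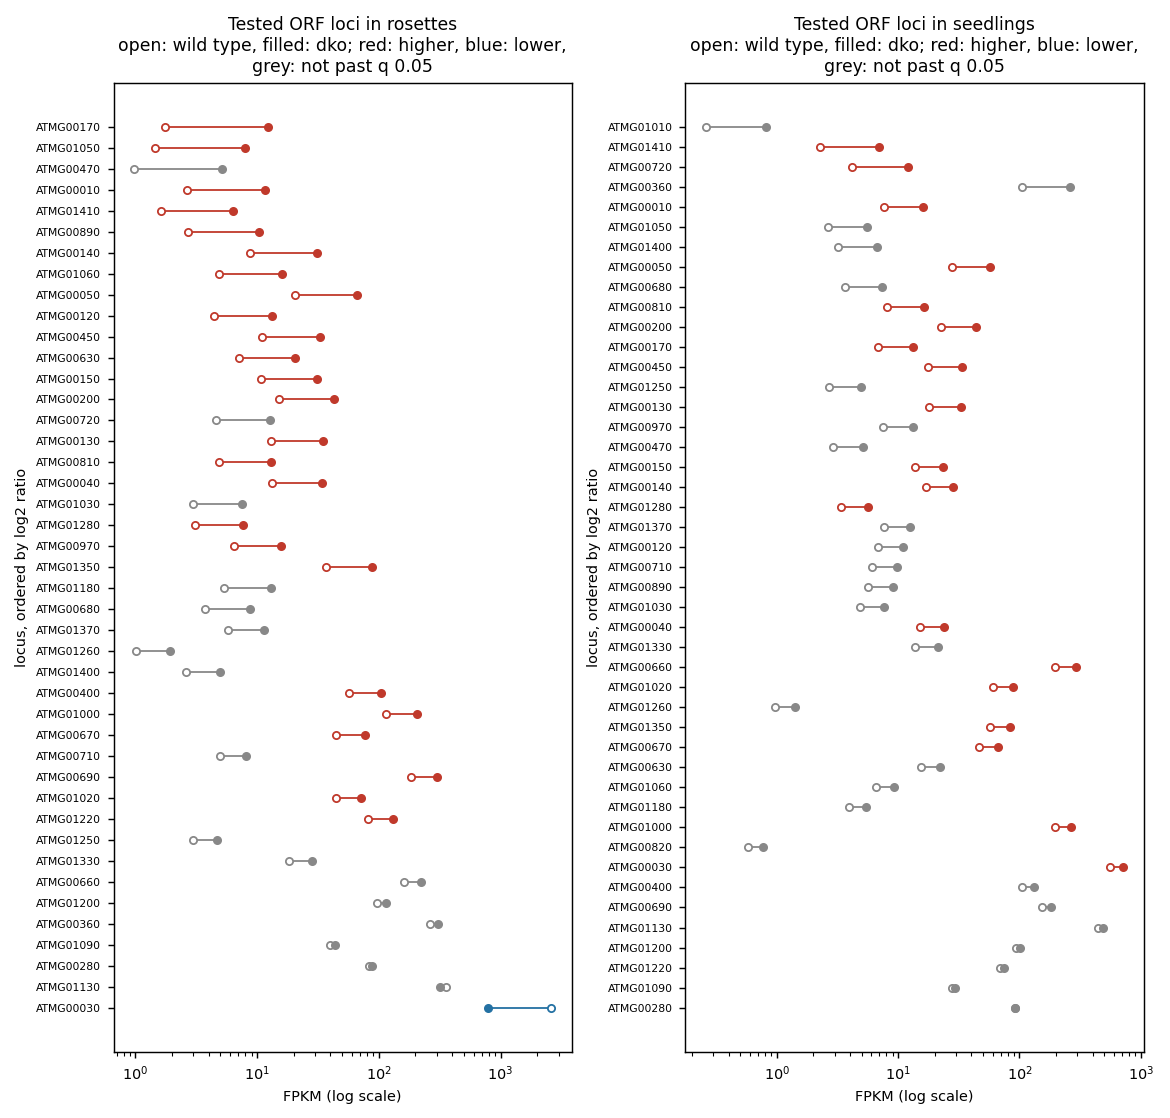
Level of each tested ORF locus in wild type (open) and dko (filled), in FPKM on a log scale, for rosettes (left, 43 loci) and seedlings (right, 45 loci), ordered by log2 ratio. Red lines mark the 25 and 19 loci called higher, blue the 1 called lower and grey those not past q 0.05. The widest red lines start at low wild-type levels, which are also the denominator of the ratio.

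In dko seedlings the shift had the same direction and was smaller. Of 45 ORF loci with a test, 19 were higher, 0 were lower and 26 did not pass in the authors' deposited table, with 25 of these 26 at a ratio above 1. Over all 19747 loci tested in seedlings, 8.4% were higher and 8.14% lower. The median log2 ratio was 0.68 for the ORF loci, 0.01 over all loci and 0.45 over the 33 tested named mitochondrial genes, of which 16 were higher and 0 lower. Of the 19 ORF loci called higher, 5 were higher by 2-fold or more, beside 243 of the 1659 called higher over all loci. The 5 were ATMG01410, ATMG00720, ATMG00010, ATMG00050 and ATMG00810.

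ATMG00720 (209499 to 209822) was at 4.20 and 12.0 FPKM in wild-type and dko seedlings (log2 ratio 1.52, q = 0.0297 in the authors' deposited table). In rosettes it went from 4.59 to 12.9 FPKM, with nearly the same log2 ratio of 1.49 but q = 0.0516 in the authors' deposited table, just outside the threshold. Next outside it in rosettes were ATMG00470 (q = 0.0679) and ATMG01180 (q = 0.0712), while ATMG01220, ATMG01020 and ATMG00890 (q = 0.0271, 0.0285 and 0.039) were the last inside it in the authors' deposited table. The nearest in seedlings were ATMG00150, ATMG00030 and ATMG00170 inside (q = 0.0396, 0.0404 and 0.0447) and ATMG01050, ATMG00400 and ATMG00970 outside (q = 0.0523, 0.0774 and 0.0901), in the authors' deposited table.

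Of the 43 ORF loci tested in both tissues, 16 were higher in both, 9 in rosettes only, 3 in seedlings only, and 15 in neither. The 16 make up 64% of the rosette calls and 84.2% of the seedling calls of a higher level. The same overlap was not counted over all loci, so these shares cannot be called particular to the ORF loci. The 3 called higher in seedlings only were ATMG00030, ATMG00660 and ATMG00720. The ratio was larger in rosettes for 36 of the 43 loci and larger in seedlings for 7. Across these loci the 2 log2 ratios were correlated (Pearson's r = 0.55, Spearman's rho = 0.58, n = 43 loci, given as a description since loci of a table share its libraries and scaling). The plot of both ratios shows the loci mostly below the line of equal change, with ATMG00030 alone among them at the far left.

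**Figure D3:**
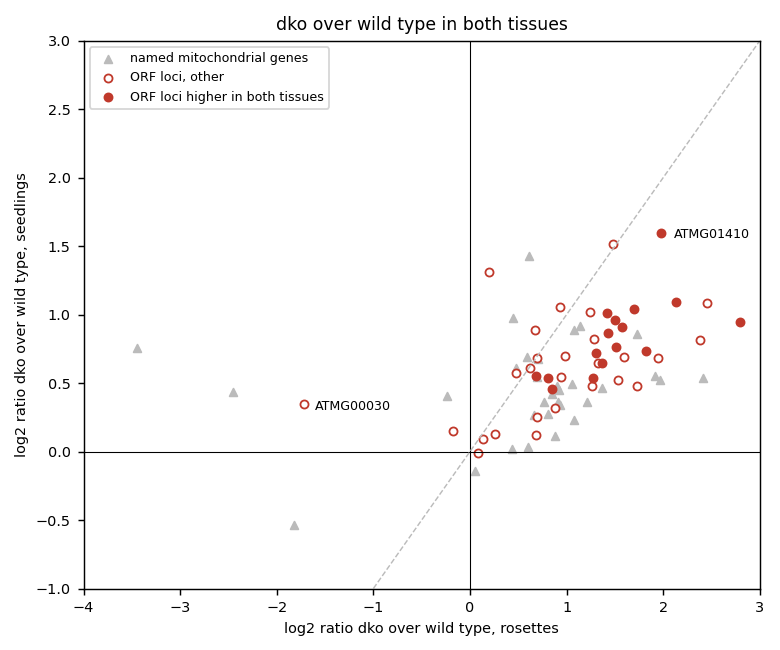
Log2 ratio of dko over wild type in rosettes (horizontal) and seedlings (vertical) for the 43 ORF loci tested in both tissues (circles, filled for the 16 higher in both) and for named mitochondrial genes (grey triangles), with a dashed line of equal ratios. The ratio is larger in rosettes for 36 of the 43 ORF loci, and ATMG00030 lies at -1.72 in rosettes and 0.34 in seedlings.

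Among tested ORF loci, abundant ones had smaller ratios than weak ones. So that a ratio was not set against its own denominator, loci were split by the wild-type level in the other tissue's table, at 50 FPKM. Only loci with a test were counted, which may leave out weak loci without a rise. One such locus was ATMG01210, at 1.08 and 0.379 FPKM in wild-type and dko rosettes. The median rosette log2 ratio was 0.58 for the 12 loci at or above 50 FPKM in wild-type seedlings and 1.43 for the 31 below it. Likewise the median seedling log2 ratio was 0.29 for the 10 loci at or above 50 FPKM in wild-type rosettes and 0.74 for the 33 below it. Across the 43 loci the rosette log2 ratio and the log2 wild-type seedling level had r = -0.66 and rho = -0.55, and the seedling log2 ratio and the log2 wild-type rosette level had r = -0.54 and rho = -0.58, both as descriptions. Wild-type levels themselves were close in order between the tissues (r = 0.97, rho = 0.95 on the log2 scale). The split therefore keeps the level apart from the ratio only in part.

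**Figure D4:**
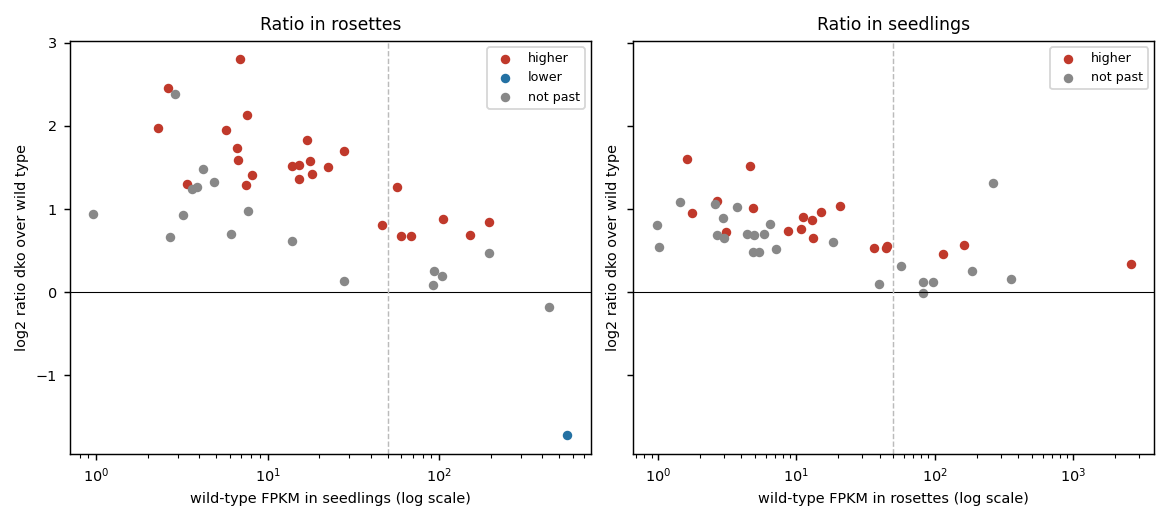
Log2 ratio of dko over wild type of the 43 ORF loci in rosettes (left) and seedlings (right) against their wild-type level in the other tissue (FPKM, log scale), colored by call, with a dashed line at 50 FPKM. The ratios are lower to the right of the line, with medians of 0.58 against 1.43 in rosettes and 0.29 against 0.74 in seedlings.

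The most abundant ORF locus after ATMG00030 in both wild types, ATMG01130 (289197 to 289517), was at 358 and 316 FPKM in wild-type and dko rosettes and at 440 and 489 FPKM in seedlings, and passed the test in neither (q = 0.653 and 0.499 in the authors' deposited tables). ATMG01200 (96.2 and 115 FPKM in rosettes, 93.2 and 102 FPKM in seedlings) did not pass either. ATMG00360 was at 265 and 304 FPKM in rosettes and at 104 and 259 FPKM in seedlings, and its log2 ratio of 1.31 in seedlings had q = 0.431 in the authors' deposited table. Other abundant ORF loci did rise. ATMG00690 went from 185 to 299.02 FPKM in rosettes (log2 ratio 0.69, q = 0.0173) and stood at 152 and 181 FPKM in seedlings (q = 0.172) in the authors' deposited tables. ATMG00660 stood at 161 and 224 FPKM in rosettes (q = 0.114) and went from 196 to 292 FPKM in seedlings (log2 ratio 0.57, q = 0.000768) in the authors' deposited tables.

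ATMG01000 (260647 to 261461), which shares its span with the named gene ATMG00990, went from 115 to 207 FPKM in rosettes and from 195 to 267 FPKM in seedlings. Both rises passed the test in the authors' deposited tables (log2 ratios 0.84 and 0.46, q = 0.000899 and 0.00681), while ATMG00990 itself was listed at 1.57 and 2.40 FPKM in rosettes and 1.61 and 4.33 FPKM in seedlings, and passed in neither. Its downstream neighbor on the map, ATMG01020, went from 44.8 to 71.8 FPKM in rosettes and from 60.2 to 88.3 FPKM in seedlings and was higher in both. Near known genes the ORF loci were more abundant and shifted less: the 13 tested loci within 500 bp of a named gene had a median wild-type rosette level of 44.2 FPKM and a median log2 ratio of 0.80, against 5.93 FPKM and 1.42 for the 30 farther away. In seedlings the median log2 ratios were 0.56 and 0.76.

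ATMG00030 went the other way in rosettes. This locus (11918 to 12241, 324 bp, 502 bp from the known gene ATMG00020) was at 2598 and 791 FPKM in wild-type and dko rosettes, and at 559 and 710 FPKM in wild-type and dko seedlings. Wild-type rosettes thus stood above the other 3 groups, though levels were normalised separately in the 2 tables. It fell in rosettes (log2 ratio -1.72, q = 0.000899) and rose in seedlings (log2 ratio 0.34, q = 0.0404) in the authors' deposited tables. ATMG00030 alone made up 59.7% of the summed FPKM of all 105 loci in wild-type rosettes, against 23.4% in dko rosettes, 22.7% in wild-type seedlings and 21.3% in dko seedlings. With it, the summed levels of wild-type and dko rosettes were 4354 and 3378 FPKM, and without it 1756 and 2587 FPKM. In seedlings the sums without it were 1898 and 2624 FPKM.

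Below the ratio of ATMG00030 in rosettes lay 3 known loci. ATMG00020 was at 1685 and 308 FPKM in wild-type and dko rosettes and at 239 and 324 FPKM in seedlings, with q = 0.0514 and 0.0647 in the authors' deposited tables. The 18S ribosomal RNA gene rrn18 (ATMG01390) fell from 710 to 65.3 FPKM in rosettes (q = 0.000899) and rose from 63.2 to 107 FPKM in seedlings (q = 0.000768) in the authors' deposited tables. ATMG01380, a locus of 118 bp, was at 436 and 123 FPKM in rosettes and at 276 and 191 FPKM in seedlings and passed in neither. Ribosomal RNA had been removed from the libraries by a depletion kit, per the labels' protocols, and how far the depletion differed between groups was not tested.

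The levels of many ORF loci cannot be told apart from those of their nuclear copies. The reference pairs 36 of the 105 loci with 37 nuclear loci, all on chromosome 2, and 36 of these 37 lie between bases 3240494 and 3502294. Of the 37, 34 matched the mitochondrial reference over at least 95% of their length at 99% identity or more, and 16 were identical over their whole length. Of the 43 ORF loci tested in rosettes, 15 have a partner in the notes and 28 have none. In rosettes 8 of the 15 and 17 of the 28 were higher (median log2 ratios 1.29 and 1.25). In seedlings 3 of the 15 and 16 of the 28 were higher (medians 0.61 and 0.70). Of the 27 ORF loci listed at 0 in all groups, 12 have such a nuclear partner, and all 12 partners carried signal, from 0.967 to 158 FPKM.

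These 12 partners followed the direction of the tested ORF loci. In rosettes 8 of the 12 were higher and 0 lower (median log2 ratio 1.40), and in seedlings 9 were higher and 0 lower (median 0.97), in the authors' deposited tables. AT2G07809, the partner of the 321 bp ORF ATMG00600, was identical to the mitochondrial reference over its whole length. It went from 12.4 to 49.1 FPKM in rosettes and from 21.8 to 46.4 FPKM in seedlings. AT2G07701, shown above, went from 13.8 to 42.4 FPKM in rosettes and from 20.2 to 44.5 FPKM in seedlings, with ATMG01150 listed at 0 in all 4 groups. AT2G07702, the partner of the neighboring ATMG01140, had the largest ratio of the 12 in both tissues in the authors' deposited tables, at 2.41 and 1.22 on the log2 scale. Over all 37 partners, 35 had a test in each tissue, of which 21 were higher in rosettes and 24 in seedlings, with 0 lower (median log2 ratios 1.08 and 0.64). Over all loci tested, 7.81% were higher in rosettes and 8.4% in seedlings. Neither the labels nor the tables say how reads of near-identical copies were assigned, and their part in these levels was not tested.

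**Figure D5:**
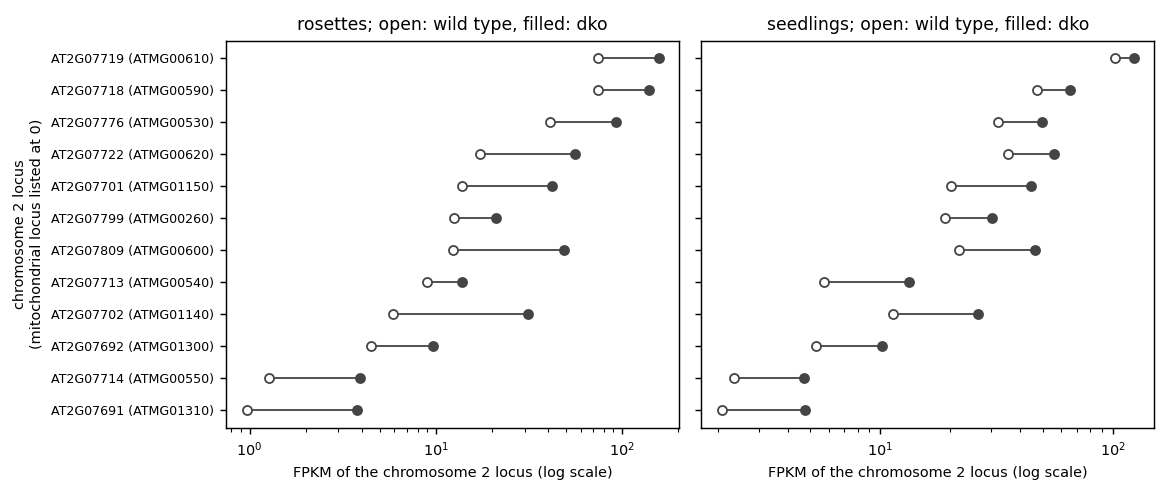
Levels (FPKM, log scale) of the 12 chromosome 2 loci whose mitochondrial partner, in brackets, was listed at 0 in all 4 groups, in wild type (open) and dko (filled), for rosettes (left) and seedlings (right). In all 12 the dko lies to the right of wild type in both tissues, and 8 and 9 of them were called higher.

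For 7 of the paired loci the reference notes name a protein. The names, given in brackets, come from notes on the nuclear partners and do not show that a locus is the working gene. ATMG00590 (a cytochrome b/b6 protein) and ATMG00610 (a putative membrane lipoprotein) were listed at 0 in all groups. Their partners AT2G07718 and AT2G07719 carried 74.5 and 74.7 FPKM in wild-type rosettes. The same notes give apocytochrome b, the respiratory subunit, to the known gene ATMG00220. ATMG00370 (Ycf1, a protein otherwise known from the chloroplast genome) was at 0.0852 FPKM in wild-type rosettes against 197 FPKM for its partner AT2G07739. That partner was identical to the mitochondrial reference over its whole length. ATMG01110 (the RNA-dependent RNA polymerase of mitoviruses, RNA viruses that live in mitochondria) was at 0.317 FPKM in wild-type rosettes against 5.02 FPKM for AT2G07749.

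ATMG00280 (the catalytic domain of the large chain of ribulose bisphosphate carboxylase, the CO2-fixing enzyme of chloroplasts) was at 82.7 and 87.6 FPKM in wild-type and dko rosettes and 92.4 and 91.9 FPKM in seedlings. Its log2 ratios were 0.08 and -0.0072 (q = 0.871 and 0.986 in the authors' deposited tables), the rosette value being the lowest of the tested ORF loci apart from ATMG00030 and ATMG01130. Its partner AT2G07732 was 9.26 times as abundant in wild-type rosettes, at 766 and 771 FPKM in rosettes and 734 and 670 FPKM in seedlings, and passed in neither. ATMG01090 (named in the notes after subunit 9 of ATP synthase) was at 39.7 and 43.5 FPKM in rosettes and 27.8 and 29.6 FPKM in seedlings and passed in neither. The same notes give that subunit, the ring of the proton channel, to the known gene ATMG01080. AT2G07777, the partner of ATMG01090, aligned over only 59.3% of its length. ATMG01280 (similar to the membrane-spanning part of cytochrome c oxidase subunit II) was the 1 of the 7 that rose in both, from 3.10 to 7.66 FPKM in rosettes and from 3.40 to 5.60 FPKM in seedlings, at 1.31 and 0.72 on the log2 scale in the authors' deposited tables.

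Among 12 nuclear genes for mitochondrial RNA synthesis, tRNA processing, RNA decay and genome stability, 4 were higher and 0 lower in dko rosettes, and 6 were higher and 0 lower in dko seedlings (median log2 ratio 0.38 in each), beside 7.81% and 8.4% higher over all loci tested. Both RNA polymerases rose in both tissues: RPOTm (AT1G68990) went from 4.82 to 8.79 FPKM in rosettes and from 5.35 to 8.07 FPKM in seedlings, and RPOTmp (AT5G15700) from 2.95 to 5.46 FPKM and from 2.24 to 4.37 FPKM. The mitochondrial polynucleotide phosphorylase (AT5G14580), which degrades RNA, had the largest change, from 1.23 to 4.79 FPKM in rosettes and from 3.08 to 7.62 FPKM in seedlings (log2 ratios 1.96 and 1.31 in the authors' deposited tables). TRZ3 (AT1G52160), which trims the 3′ end of tRNA precursors, rose in both, from 3.12 to 6.04 FPKM and from 4.16 to 5.98 FPKM. PRORP1 (AT2G32230), the protein-only RNase P that trims their 5′ end in mitochondria and chloroplasts, stood at 6.96 and 9.16 FPKM in rosettes (q = 0.265) and rose from 18.7 to 39.8 FPKM in seedlings (q = 0.000768) in the authors' deposited tables. RNR1 (AT5G02250), an organellar exoribonuclease, rose in seedlings, from 17.4 to 22.9 FPKM. The other 6, among them the RNA helicase SUV3, TRZ4, the CCA-adding enzyme and the genome stability genes MSH1, RECA3 and OSB1, passed in neither tissue.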

How the data were processed

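Stranded libraries were made from total RNA after ribosomal RNA depletion, per the labels' protocols. The submitters' processing notes name Bowtie2, TopHat2, Cufflinks and Cuffdiff (all 2.2.0) and TAIR10, and how multi-mapping reads were handled was not found. The authors deposited, per tissue, 1 pooled FPKM per group, the log2 ratio of dko over wild type, Cuffdiff's p-value and q-value, and its test score, which is not printed. Recomputed log2 ratios differed by at most 1.39e-05, and Benjamini-Hochberg values over all tested loci by at most 5.24e-07 from the deposited q-values. The labels do not say that replicates were separate plants, so q-values reflect a spread that may be technical. Without replicate values, no test over replicates was run. Levels were compared within a table, and 1 was added to its 0-based starts.

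Members and lists were chosen with earlier results of these data known. Named loci are the 10 highest and 5 lowest ratios past q 0.05, the 10 of highest wild-type FPKM, the 10 largest shared changes, the 3 on each side of the threshold and those on a named gene's span. Others (loci listed at 0, with a nuclear partner or a protein name, ATMG00040) were chosen after their values were seen. Nuclear partners come from notes in NCBI's TAIR10.1 annotation and were aligned to its mitochondrial genome with blastn 2.17.0. Python 3.11.15, pandas 2.3.3 and matplotlib 3.10.9 were used, and the Benjamini-Hochberg adjustment was tested on simulated p-values.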

Additional observations from a re-analysis of the deposited data

Results flagged for a closer look

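ATMG00030 moved in opposite directions in the 2 tissues in the authors' deposited tables, with a log2 ratio of -1.72 in rosettes and 0.34 in seedlings, both past q 0.05. The difference between the tissues was not tested, since 1 pooled value per group is at hand.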

How the results depend on the processing

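No paired analysis was possible because each group has 1 pooled value, and leaving out a replicate was not possible for the same reason. The count of loci higher in rosettes (25) stayed within 1.5 times under every alternative run, from 18 to 29. The 1 locus called lower there is ATMG00030, so without it the count is 0. In seedlings the 19 loci called higher became 12 at q under 0.01 and 5 with a minimum of 2-fold, and lay between 16 and 23 otherwise. Recentring on the median of the named mitochondrial genes, an alternative that measures change beyond theirs, lowered the median log2 ratio from 1.27 to 0.42 in rosettes and from 0.68 to 0.23 in seedlings. On that scale, which shifts all loci alike, 13 tested loci turned below 0 in rosettes and 8 in seedlings. Among those called, these were 5 in rosettes, namely ATMG00670 (-0.051), ATMG00690 (-0.16), ATMG01000 (-0.0088), ATMG01020 (-0.17) and ATMG01220 (-0.17), and 1 in seedlings, ATMG00030 (-0.11). Recentring single loci, the adjustment of single loci, and leaving out ATMG00030 or abundant loci were chosen after seeing the data. Depth is unknown, and values listed at 0 may be failed estimates.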
